A study of Mus musculus with 30 samples.

Results

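Deletion E removes a 6.95 Mb stretch of the mouse X chromosome (mm10 chrX:68651334-75601939) from the chromosome of 129/Sv origin (the Mus allele), so that the genes of this interval remain on the Cast/Ei chromosome (the Cast allele) alone. The genes were chosen by position: 212 of the 55240 annotated genes matched to the count table lie between the borders, and none straddles them. Of these, 104 are protein-coding, 71 are pseudogenes and 37 are of other types. No read was counted for 77 of the 212 genes in any of the libraries compared here, 60 more had reads but stayed under a mean count of 20, and 75 were tested (67 protein-coding genes and 8 pseudogenes). The main comparison used bulk RNA-seq of 6 of the 30 libraries of the study, all from the same library batch. A later view set the deletion C-G line beside other deletion lines, all in an Rnf12+/- background. Among these, deletions J and I-TEL were made in a second Rnf12+/- parental line. An alternative fit used all 30 libraries, XO lines included, with no term for the library batch.

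All 6 libraries came from female 129/Sv x Cast/Ei F1 hybrid mouse embryonic stem cells grown on feeder fibroblasts with LIF, from which feeders were depleted by 45 minutes of pre-plating. The 2 deletion E libraries (E 1 and E 2) came from separate clones, made by CRISPR-Cas9 and G418 selection in an Rnf12+/- parental line, which keep a floxed neomycin cassette in place of the interval. The parental genotype was represented by 2 XX Rnf12 libraries (Rnf12 1 and Rnf12 2), in which *Rnf12* is deleted from the Mus allele. The 2 XX wild-type libraries (WT 1 and WT 2) carry no such deletion and differ from the others in the copy number of chromosome 12, which was left out. The labels do not say that the replicates of an XX genotype were separate cultures, so the p-values measure the spread between these libraries.

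Female cells balance X-linked dosage by inactivating an X chromosome, a process driven by the non-coding RNA *Xist* that has not begun in undifferentiated stem cells, where both X chromosomes are active. X upregulation is the rise of RNA output from the remaining active copy of a gene when the other is silent or lost. A deletion on an otherwise active X chromosome leaves a stretch with a single copy inside cells that are XX elsewhere, and the question is whether the remaining Cast copy gave more RNA than the same copy gives in XX cells. Total counts address the output of the gene, and Cast counts, taken from reads that overlap strain-specific variants, address the output of the remaining copy directly.

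Depth was even across the 6 libraries, at 20375194 to 21181405 counts, and 12.4% to 12.5% of counts could be given to an allele. *Rlim*, the gene that codes for RNF12, gave 718 and 689 Mus reads in wild type, 26 and 37 in XX Rnf12 and 35 and 43 in deletion E, so deletion E carried the *Rnf12* deletion of its parent. Outside the deletion, median log2 changes of the autosomes used against XX Rnf12 ranged from -0.10 to 0.02 over 18 chromosomes. The lowest was chromosome 14, whose median against wild type was 0.004, and the next was -0.03 on chromosome 9. The summed level of 5 stem cell markers was between 4869 and 5357 TPM (counts scaled by exon length and by library, computed here) in all 6 libraries. That sum includes *Esrrb*, on chromosome 12, at 712 to 891 TPM. The summed level of 18 fibroblast markers was uneven: 2201 TPM in E 1, 3021 in E 2, 3109 in Rnf12 1, 905 in Rnf12 2, 2372 in WT 1 and 877 in WT 2. None of the 18 was at 0 in any library. The 6 primitive endoderm markers summed to between 17.8 and 24.7 TPM.

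The deleted interval gave little more than the RNA of 1 copy. Over the 60 genes of the interval with a mean above 5 TPM in XX Rnf12, the mean level was 74.0 TPM in E 1 and 78.7 in E 2, against 132 and 135 in XX Rnf12 and 135 and 136 in wild type. Both deletion E libraries were below all 4 XX libraries. The ratio of deletion E to the XX libraries was 0.568, and a two-sided exact permutation test gave p = 0.0667, the smallest that 2 against 4 libraries allow. Genes entered this set by their level in XX Rnf12, a group of this comparison, and deletion E lacks a copy of each by design. A lower total was thus built into the test, and its p-value does not bear on the output of the remaining copy. The set also holds genes that are not protein-coding, among them the pseudogene *Gm8172*. Among its 53 protein-coding genes the ratio was 0.540. X-linked protein-coding genes outside the deletion (321 genes above the same level) had a mean of 131 and 134 TPM in deletion E, 126 and 130.4 in XX Rnf12 and 141 and 142 in wild type, and the same exact permutation test gave p = 0.80.

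**Figure D1:**
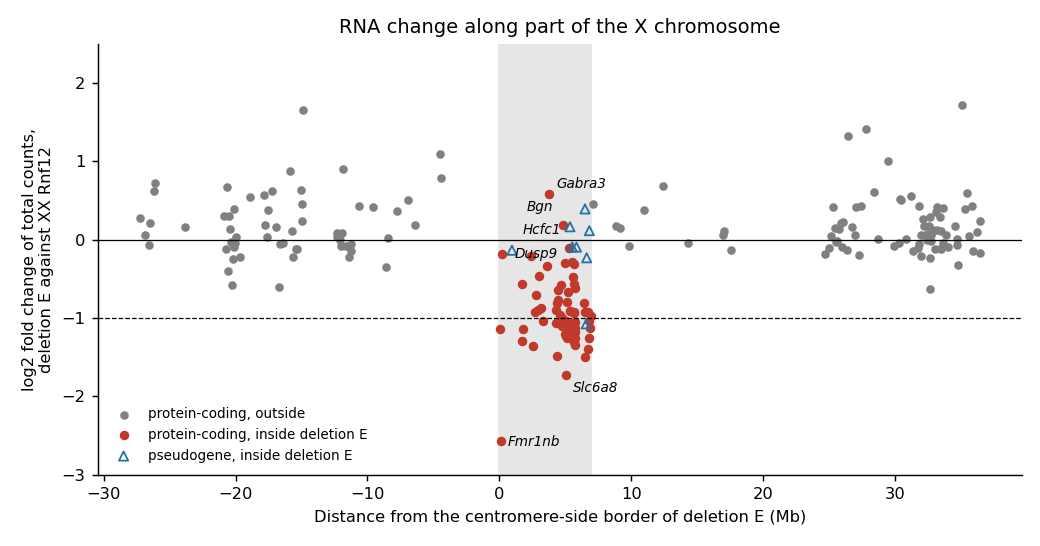
Each point is a tested X-linked protein-coding gene (circle) or a pseudogene of the interval (triangle), placed by its distance in Mb from the centromere-side border of deletion E (x axis) and by its log2 fold change of total counts in deletion E (2 libraries) against XX Rnf12 (2 libraries, y axis). The grey band is the deleted interval, the dashed line at -1 is the change from 2 copies to 1, and most protein-coding genes in the band lie near that line while those outside scatter around 0.

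Gene by gene, the change was close to that of a lost copy. The median log2 change of the 67 tested protein-coding genes against XX Rnf12 was -0.97, with an interquartile range of -1.17 to -0.68, where -1 is the change from 2 copies to 1. Across all 14241 genes tested outside the interval the median was -0.01. Both deletion E libraries were below all 4 XX libraries for 55 of the 67 genes, and above all 4 for none; outside the interval, 9.07% of tested genes lay below and 16.3% above all XX libraries. By the edgeR quasi-likelihood test with Benjamini-Hochberg adjustment over all 14316 genes tested, 16 of the 67 fell, against a background of 0.119% of all genes tested that were called lower. None rose (background 0% called higher), by edgeR at an unadjusted p under 0.05 (0 genes) or by DESeq2 (0). At an unadjusted p under 0.05, 53 of the 67 were lower, against 5.03% of all genes tested. DESeq2 called 42 genes of the interval lower, against 0.594% of all genes tested called lower and 0.789% called higher. With any 1 of the deletion E or wild-type libraries left out, edgeR called 0 of them, and without Rnf12 2 it called 1 (*Slc6a8*), while the median change stayed between -1.09 and -0.95.

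At the borders, levels changed between neighbouring tested genes. The first tested gene of the interval, *Fmr1* (chrX:68678541-68717963), which codes for the translational regulator lost in fragile X syndrome, was at 45.8 and 56.9 TPM in deletion E and at 102, 117, 106 and 114 TPM in the XX libraries. The last, *Rab39b* (chrX:75572046-75578231), a small GTPase gene, was at 4.39 and 3.67 TPM against 7.06, 8.24, 7.37 and 9.11 TPM. Neither was called after adjustment. Beyond the telomere-side border, *Pls3*, an actin bundling gene 0.184 Mb away, was at 106 and 113 TPM in deletion E and 93.6 and 59.8 TPM in XX Rnf12, with 108 and 129 Mus reads in deletion E. On the centromere side the nearest tested protein-coding gene, *Slitrk4*, lay 4.37 Mb away, at 1.14 and 1.20 TPM against 0.691 and 0.615 TPM, so that border is resolved only from the inside.

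Of 5 genes of translation and RNA, all tested, 4 fell, against 16 of all 67 tested protein-coding genes of the interval. This was the largest called share among the lists of roles, which are short and were chosen with earlier results known. The calls in the lists below are likewise to be read beside 16 of 67, since all their genes lost a copy. The median log2 change of the list was -1.08, beside -1.05 in the metabolic list and -1.16 in the secretory list. *Rpl10*, a protein of the large ribosomal subunit, was at 609 and 574 TPM in deletion E, 1121 and 1250.1 in XX Rnf12, and 1270.2 and 1418 in wild type. The deletion E levels did not overlap those of any XX library, and the log2 change was -1.06 (edgeR, Benjamini-Hochberg adjusted p = 0.044). *Dkc1*, the pseudouridine synthase of box H/ACA particles and telomerase, was at 350.0 and 344 TPM against 570.0 and 601 TPM in XX Rnf12, a log2 change of -0.81. *Lage3*, a subunit of the complex that modifies tRNA, changed by -1.34, and *Naa10*, an N-terminal acetyltransferase, by -1.08. *Fmr1*, the fifth, changed by -1.14 and did not pass.

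Metabolic genes held the gene that was furthest below the level of 1 copy among those called. Of 10 listed, 9 were tested and 3 fell, with a median log2 change of -1.05. *Slc6a8* (chrX:73673150-73682502), the creatine transporter gene, was at 68.1 and 69.4 TPM in deletion E, 209.6 and 229.9 TPM in XX Rnf12, and 164 and 157 TPM in wild type. It stood at 31.3% of XX Rnf12, and its log2 change was -1.73 ± 0.08 (SE; edgeR, Benjamini-Hochberg adjusted p = 0.0079). *Idh3g*, a subunit of the NAD-dependent isocitrate dehydrogenase of the citric acid cycle, was at 161 and 169 TPM against 353 and 405 TPM in XX Rnf12, a log2 change of -1.26. *G6pdx*, the first enzyme of the pentose phosphate pathway, was at 94.6 and 108 TPM against 195 and 209.8 TPM, a change of -1.05. Among those not called, *Nsdhl*, of cholesterol synthesis, had a log2 change of -0.90 and *Renbp* of -1.21, and *Tktl1*, a transketolase-like gene at 3.29 and 3.66 TPM in deletion E and 4.56 and 3.56 TPM in XX Rnf12, of -0.28.

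All 12 genes of the secretory pathway, proton pump and membrane list were tested, with a median of -1.16, and 4 fell. These were *Bcap31*, an endoplasmic reticulum chaperone and export factor (-1.23), *Ssr4*, of the translocon-associated complex (-1.22), *Ubl4a*, which helps insert tail-anchored proteins (-1.25), and *Fundc2*, a mitochondrial outer membrane gene (-1.39). *Slc10a3* had 6.32 and 7.48 TPM in deletion E and 16.3, 12.6, 11.2 and 11.5 TPM in the XX libraries and did not pass (-1.12). *Atp6ap1*, an accessory subunit of the vacuolar proton pump, had a change of -0.93 and did not pass either. All 12 had an unadjusted p under 0.05 with a lower level, as had 53 of all 67 tested protein-coding genes of the interval.

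**Figure D2:**
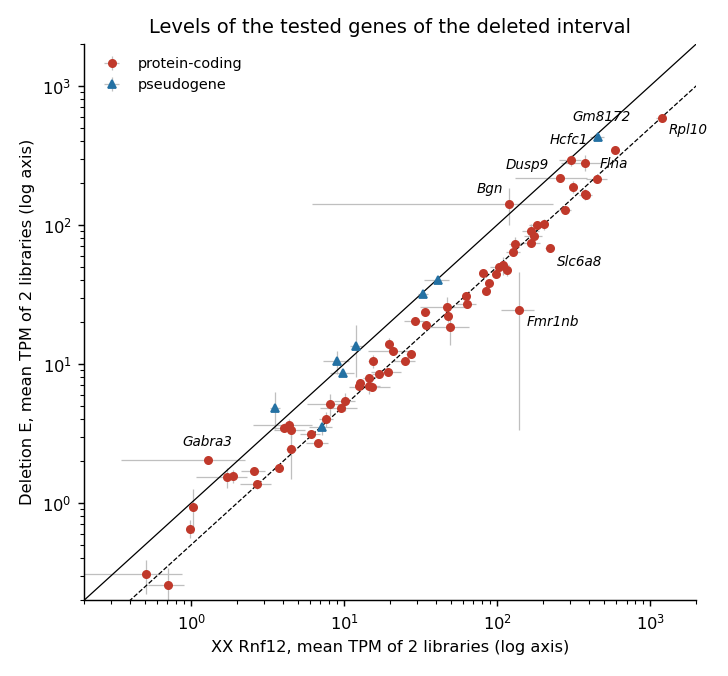
Mean TPM of each tested gene of the deleted interval in XX Rnf12 (x axis) and deletion E (y axis), both on log axes, with error bars of 1 SD over 2 libraries. The solid line marks equal levels and the dashed line 50%; most protein-coding genes (circles) follow the dashed line, *Hcfc1* is near the solid line, *Slc6a8* and *Fmr1nb* are below the dashed line, and most pseudogenes (triangles) follow the solid line.

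Of 9 cytoskeletal, nuclear envelope, adhesion and matrix genes, all tested, 3 fell: *Emd*, which codes for the nuclear envelope protein emerin (-1.17), *Haus7*, an augmin subunit of the spindle (-1.10), and *Pdzd4* (-0.80). *Pdzd4* was at 175 and 200.5 TPM in deletion E, 309 and 319.7 TPM in XX Rnf12 and 272 and 270.4 TPM in wild type, so its libraries did not overlap, and it stood at 59.7% of XX Rnf12. The median of the list was -0.93, and its members ranged from -1.17 to 0.19. Of 10 signalling genes 7 were tested and 1 fell, *Irak1*, the kinase of interleukin-1 and Toll-like receptor signalling (-0.91), with a list median of -0.91. *Ikbkg*, the NEMO subunit of the NF-kB kinase, had a change of -0.61 and did not pass. Of 9 chromatin and transcription genes 7 were tested and 1 fell, *Naa10*, which is also in the translation list, with a list median of -0.90. *Hmgb3*, a high mobility group protein gene, had -0.90 and did not pass. *Brcc3*, the deubiquitinase of the BRCA1-A complex, fell (-1.25), and the genes listed with it (*Mtcp1*, *Cmc4* and *Dnase1l1*), all tested, were not called. Only 1 of the 10 *Xlr* and *Mage* genes could be tested, *Xlr3a*, at under 1 TPM in deletion E and XX Rnf12. These are families of near-identical copies, whose reads may have been split or dropped.

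Per copy, with 1 copy in deletion E and 2 in XX cells entered in the model, no gene of the interval was called by edgeR in either direction, against a background of 0% called higher and 0% called lower. At an unadjusted p under 0.05, 10 of the 67 protein-coding genes were higher and 9 lower per copy, against 6.00% and 4.72% of all genes tested. The median log2 change per copy was 0.03. It was above 0 for 34 genes and below 0 for 33, and 37 lay within 0.25 of 0. In all, 11 genes were above 0.5 and 3 below -0.5. The 14 genes with a mean under 5 TPM had a median of 0.44 per copy, and 7 of them were above 0.5. The 53 at 5 TPM or more had a median of -0.05, and the 4 of these above 0.5 were *Hcfc1*, *Bgn*, *Dusp9* and *Flna*. DESeq2, and edgeR over all 30 libraries, each called 3 genes of the interval higher per copy (*Hcfc1* and the pseudogenes *Gm8172* and *Rpl3-ps2*) and 1 lower (*Slc6a8*). Over all genes tested these called 0.712% and 0.112% higher and 0.3% and 0.0419% lower.

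The extremes per copy were mostly genes of low or uneven level. *Gabra3*, a GABA receptor subunit gene, had the highest fitted value (1.59 ± 0.57 SE) at 1.95 and 2.09 TPM in deletion E and 1.96 and 0.623 TPM in XX Rnf12. *Bgn* came next (1.19), then *Hcfc1* (0.89), *Gm14698* (0.81) and *Mamld1* (0.79). At the other end, *Fmr1nb*, a germline-expressed neighbour of *Fmr1*, was at 9.56 TPM in E 1, 39.5 in E 2, 115 and 163 in XX Rnf12, and 140 and 204 in wild type. It changed by -1.57 per copy, with an SE of 0.58, and its deletion E libraries differed from each other more than its XX Rnf12 libraries did on a ratio scale. *Slc6a8* was at -0.73 ± 0.07 (SE) per copy. The others were *F8* (-0.50), *Pnma5* (-0.48) and *Fundc2* (-0.39). A value per copy treats the alleles of XX cells as equal in output. In the XX libraries the Mus share was 63.3% for *Slc6a8*, 58.1% for *Pnma5* and 79.3% for *Fundc2*, and 48.5% for *Hcfc1*. These values per copy are thus not a measure of the Cast copy alone, and the part of unequal alleles in them was not tested.

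*Hcfc1* (chrX:73942792-73966357), which codes for the chromatin cofactor HCF-1, was the tested protein-coding gene above 5 TPM whose total level in deletion E was closest to that of XX Rnf12. It was at 273 and 312 TPM in deletion E, 338 and 269 TPM in XX Rnf12, and 317 and 223 TPM in wild type. The groups overlapped, and deletion E stood at 96.6% of XX Rnf12. Its total log2 change was -0.11 ± 0.19 (SE), and its change per copy 0.89 ± 0.19 (SE; edgeR, Benjamini-Hochberg adjusted p = 0.36; unadjusted p = 0.0033). The nearest tested protein-coding genes on either side of it lay near 0: *Renbp* had -0.21 per copy and *Irak1* 0.09.

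The Cast reads gave a readout of the remaining copy itself. Of the 36 genes of the interval with a mean Cast count of at least 20, all protein-coding, the median log2 change of Cast counts against XX Rnf12 was -0.10, with an interquartile range of -0.20 to 0.10. The median over the 7443 genes tested outside was -0.01. None was called by edgeR, against a background of 0% called higher and 0% called lower; 3 of 36 were higher and 1 lower at an unadjusted p under 0.05 (4.89% and 3.92% of all genes tested on Cast counts), and DESeq2 called 1 higher, *Hcfc1* (0.0802% of all called higher and 0.0267% lower). Both deletion E libraries were above all 4 XX libraries for 5 of the 36 genes and below all 4 for 6, against 10.8% and 9.78% outside the interval. In 34 of the 36 the change was smaller than 0.5 in size. The other two were *Hcfc1* and *Dusp9*.

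*Hcfc1* had 874 and 958 Cast reads in deletion E, 553 and 450 in XX Rnf12, and 513 and 387 in wild type. The deletion E libraries lay above every XX library, with a log2 change of 0.85 ± 0.16 (SE). The edgeR adjusted p was 0.16 with Benjamini-Hochberg adjustment, and the unadjusted p was 0.00034. Leaving out single libraries moved the change between 0.67 and 1.04, and the call was made without Rnf12 1, where its adjusted p was 0.0235. It was also made with the replicate number as a block (0.87, edgeR adjusted p = 0.0248) and with no filter on low counts (adjusted p = 2.2e-07). The replicate numbers did not pair deletion E with the XX libraries, as given in the closing section. With the deletion E numbers crossed in that block, a pairing chosen after seeing the data, the adjusted p was 0.0018. These settings also called genes outside the interval on Cast counts, as counted in the closing section. The call was not made with the 4 XX libraries as 1 group (edgeR adjusted p = 0.071) or over 50 Cast counts (0.14). Mus reads of *Hcfc1* fell to 19 and 16 in deletion E, from 538 and 424 in XX Rnf12, a share of 2.13% and 1.64%.

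**Figure D3:**
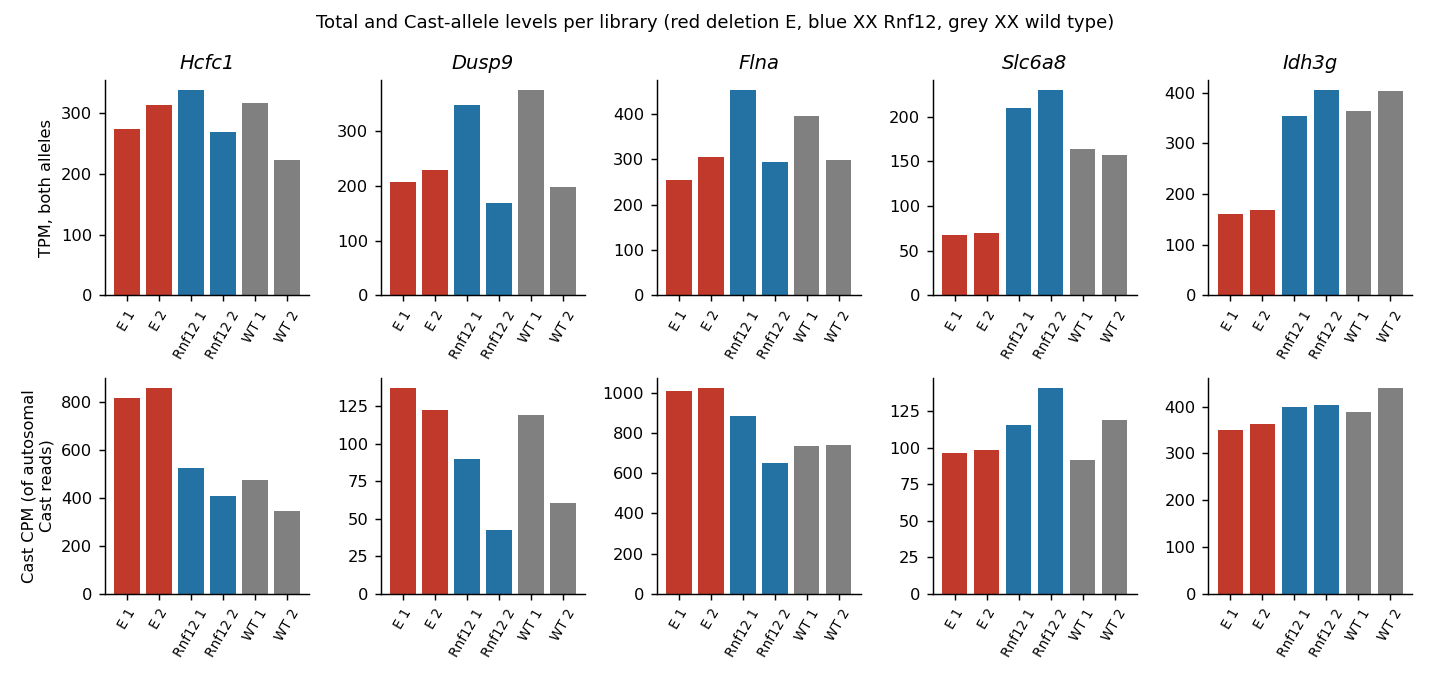
Bars give the level of each of 5 genes of the deleted interval in each library, in TPM over both alleles (upper row) and in Cast CPM, Cast reads scaled to the autosomal Cast reads of the library (lower row), with deletion E in red, XX Rnf12 in blue and XX wild type in grey. Cast reads of *Hcfc1* in deletion E stand above all XX libraries and those of *Idh3g* below them, while the total level of *Hcfc1* overlaps with XX.

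*Dusp9* (chrX:73639419-73643514), a phosphatase gene that restrains MAPK signalling in stem cells, had uneven XX libraries. Its Cast reads were 147 and 137 in deletion E, 95 and 47 in XX Rnf12 and 129 and 68 in wild type, with a log2 change of 0.98 ± 0.34 (SE; edgeR, Benjamini-Hochberg adjusted p = 0.40). Without Rnf12 1 the change was 1.61, and without Rnf12 2 it was 0.53. *Dusp9* was called with no filter on low counts (edgeR adjusted p = 0.0014). It was also called with the replicate block of crossed deletion E numbers (0.044), a pairing chosen after seeing the data. Both settings also called genes outside the interval on Cast counts. No Mus read of it was counted in deletion E, which allows a share of up to 2.55% in E 1 and 2.73% in E 2 (upper bounds of 95% Wilson intervals, which cover counting error only). In total it was at 207 and 228 TPM in deletion E, 347 in Rnf12 1, 168 in Rnf12 2, 374 in WT 1 and 197 in WT 2. Both first XX libraries were above deletion E and both second ones below it. The change per copy was 0.27 without Rnf12 2 and 1.32 without Rnf12 1.

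*Flna* (chrX:74223461-74249820), which codes for the actin crosslinker filamin A, was at 254 and 306 TPM in deletion E, 452 and 295 TPM in XX Rnf12 and 395 and 299 TPM in wild type. Its Cast reads were 1084 and 1145 in deletion E, above all of 938, 722, 799 and 831 in the XX libraries, with a log2 change of 0.40 ± 0.14 (SE; edgeR, Benjamini-Hochberg adjusted p = 0.40). Without Rnf12 1 the change was 0.65 and called (adjusted p = 0.042), and without Rnf12 2 it was 0.20. Although its Mus copy is inside the deleted interval, 341 and 575 Mus reads were counted in deletion E, a share of 23.9% and 33.4%.

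*Bgn* (chrX:73483602-73495933), the gene of the matrix proteoglycan biglycan, was read almost only from Mus. It had 561 and 802 Mus reads in deletion E with 1 and 0 Cast reads, and 993, 193, 625 and 222 Mus reads with 0 to 2 Cast reads in the XX libraries. Its level was 112 and 170.5 TPM in deletion E, 199 and 39.2 in XX Rnf12, and 137 and 39.8 in wild type. By *Bgn* and by the summed fibroblast markers alike, Rnf12 1 was highest, followed by E 2, WT 1 and E 1, with Rnf12 2 and WT 2 far below. Of the allelic reads of the fibroblast markers, 58.1% to 75.3% were Mus, with the lowest shares in Rnf12 2 and WT 2. In bulk RNA, more cells of a type and more RNA per cell cannot be told apart. The fibroblast marker sum was 2201 TPM in E 1 and 3021 in E 2, against 877 to 3109 in the XX libraries. The part of feeder RNA in the values of *Bgn*, *Flna*, *Dusp9* and *Hcfc1* was not tested.

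Residual Mus reads in the interval were few apart from these genes. Over the 53 protein-coding genes above 5 TPM, the Mus share was 16.5% (95% Wilson interval 15.6 to 17.4) in E 1 and 22.4% (21.5 to 23.4) in E 2, against 51.6% to 58.9% in the XX libraries. Without *Bgn* and *Flna* it was 4.00% (3.47 to 4.61) and 5.72% (5.10 to 6.40), against 50.5% to 52.3%. On the rest of the X chromosome it was 51.9% in both deletion E libraries. Of 44 genes with at least 20 allelic reads in deletion E, 22 had a Mus share under 5% and 7 had none, and 5 were above 20%: *Bgn*, *Mpp1*, *Cd99l2*, *Flna* and *Fundc2*. *Mpp1*, a membrane scaffold gene, had 20 and 43 Mus reads in deletion E beside 21 and 18 Cast reads. The share over the 53 genes was higher in E 2 than in E 1, as was the fibroblast marker sum. The source of these Mus reads was not tested.

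Cast reads of the 50 genes left without *Bgn*, *Flna* and *Hcfc1* (a set formed after their values were seen) summed to 3542 and 3627 in deletion E, 3405 and 3807 in XX Rnf12 and 3574 and 3793 in wild type. The groups overlapped. The genes named for their role ranged accordingly: *Idh3g* had 375 and 405 Cast reads in deletion E against 422, 446, 422 and 492, *Emd* 125 and 122 against 137, 184, 132 and 164, and *Dkc1* 852 and 826 against 763, 795, 832 and 875. *Slc6a8* had 103 and 110 Cast reads against 122, 156, 99 and 133 (log2 change -0.40 ± 0.18 SE), so its Cast reads overlapped with wild type while its total did not. *Pdzd4* had 200 and 226 against 162, 201, 159 and 149.

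**Figure D4:**
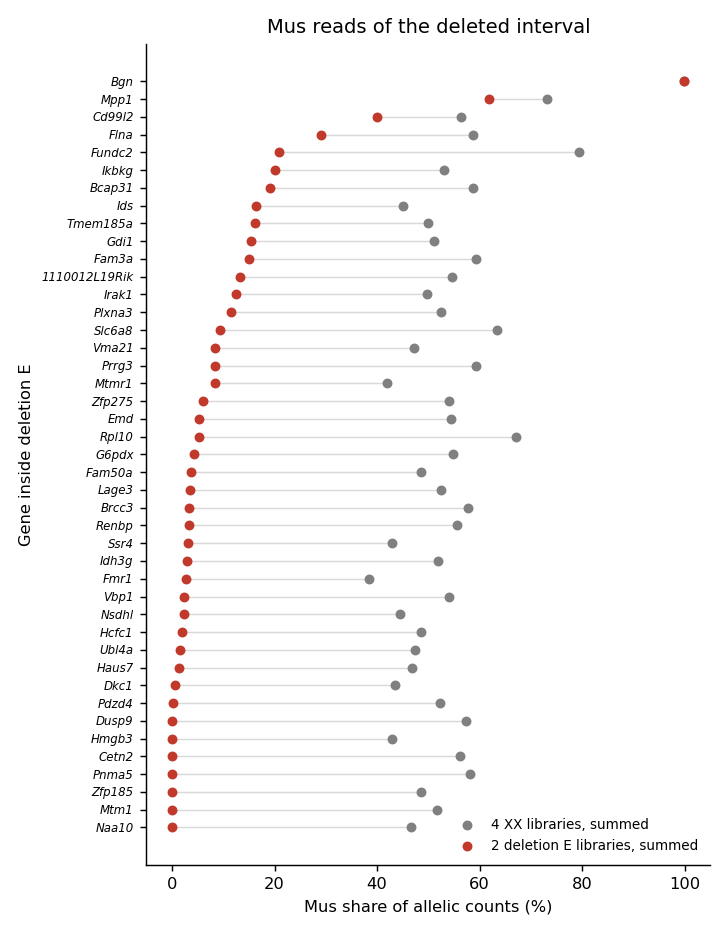
Mus share of allelic counts (x axis, %) of 43 protein-coding genes of the deleted interval with at least 20 allelic counts in deletion E, summed over the 2 deletion E libraries (red) and over the 4 XX libraries (grey). The red points are under 5% for 22 genes, and *Bgn* stays near 100% in both.

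Tested pseudogenes of the interval were near their XX level. The median log2 change of the 8 was -0.09 and they stood at a median of 97.3% of XX Rnf12, and 7 of the 8 were above 0.5 per copy. *Gm8172* was at 439 and 420.5 TPM in deletion E and 421 and 488 TPM in XX Rnf12, and *Rpl3-ps2*, named for the ribosomal protein gene *Rpl3*, at 38.1 and 41.6 TPM against 35.4 and 46.4 TPM. Processed pseudogenes share sequence with their parent genes, and reads of near-identical copies elsewhere in the genome may be counted on them, so their values per copy are uncertain. They were kept apart from the protein-coding genes, except in the mean level over 60 genes. The ratio of 0.568 there was 0.540 over the 53 protein-coding genes.

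**Figure D5:**
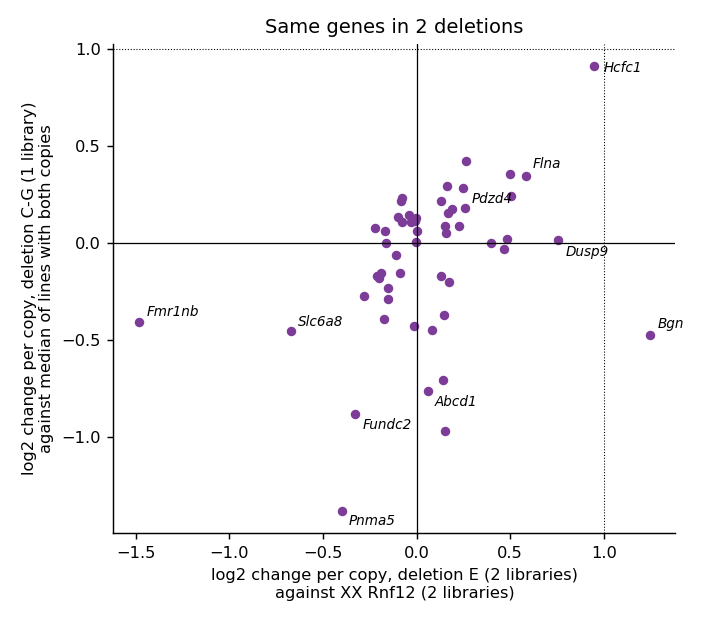
Log2 change per copy, on the scale of log2(TPM + 0.5), of the 53 protein-coding genes above 5 TPM in deletion E (x axis, 2 libraries against 2 XX Rnf12 libraries) and in the C-G line (y axis, 1 library against the median of lines with both copies of the gene). Solid lines mark the level of 1 copy and dotted lines that of 2 copies; *Hcfc1* is near the dotted lines in both, and *Bgn* and *Dusp9* are high on the x axis and not on the y axis.

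A separate deletion gave a second view of the interval. The C-G line (1 library, another library batch, 10200569 counts) lacks a longer Mus stretch that includes the interval, with a Mus share there of 2.61%, and was set beside libraries of other deletion lines of its batch that keep both copies of a gene (19 for each gene but *Rab39b*, which had 17). With a single library it has no replicate check. Over the same 53 genes, C-G stood at a median of 48.8% of the median of those lines, and was below all of them for 50. No share over genes outside the deleted stretch was computed to set beside this count, and the 53 genes were chosen by their level in XX Rnf12. *Hcfc1* in C-G was at 271 TPM, against a range of 216 to 338 and a median of 289, and had 425 Cast reads against 185 to 282. *Flna* was at 233 TPM, below the range of 289 to 489, with 625 Cast reads against 373 to 700. *Dusp9* was at 98.6 TPM, below the range of 126 to 329, with 34 Cast reads against 17 to 59, and *Bgn* at 19.3 TPM against 23.0 to 122. *Slc6a8* was at 60.6 TPM against 142 to 293, which is 36.4% of the median. Across the 53 genes the log2 changes per copy of deletion E and C-G had Pearson's r = 0.38 and Spearman's rho = 0.45, a description over genes, which are not independent replicates, from libraries that share no controls.

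Outside the interval 1 gene passed against XX Rnf12, *Rpl10-ps3* (chr9:50344201-50344968), annotated as protein-coding, whose symbol follows that of *Rpl10*. It was at 30.9 and 32.1 TPM in deletion E, 78.1 and 79.4 in XX Rnf12 and 56.9 and 57.4 in wild type, with a log2 change of -1.37 (edgeR, Benjamini-Hochberg adjusted p = 0.044). The call was lost without any 1 of the 6 libraries (adjusted p of 0.058 to 0.87) and with the replicate block (0.060). Whether its reads can be told apart from those of *Rpl10* inside the interval, which changed by -1.06, was not tested. None of 526 tested X-linked genes outside was called; 79 (15.0%) were higher and 19 (3.61%) lower at an unadjusted p under 0.05, against 5.91% and 4.68% of all genes tested outside. DESeq2 called 18 of them, all higher (3.42%), and over all genes outside it called 113 higher (0.793%) and 43 lower (0.302%). X-linked protein-coding genes outside had a median log2 change of 0.07 (interquartile range -0.09 to 0.34), against -0.01 (-0.14 to 0.15) for 12134 autosomal ones. Against wild type, the median of these X-linked genes was 0.001.

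None of 178 tested members of pathway lists tied to genes of the interval was called against XX Rnf12 by edgeR. At an unadjusted p under 0.05, 8 were higher (4.49%) and 16 lower (8.99%), against 5.88% and 5.03% of all genes tested. DESeq2 called 5 (2.81%, against 1.38% of all genes tested), which were *Dnmt3b* and *Rpl13a* higher and *Egr1*, *Wdr5* and *Tfcp2l1* lower. With *Dusp9* in view, 14 of 15 MAPK feedback genes were tested, with a median of -0.003; *Etv5* was at 254 and 290 TPM against 206 and 193 TPM and *Egr1*, an immediate early gene, at 354 and 308 TPM against 463 and 617 TPM. With *Ikbkg* and *Irak1* in view, 10 of 12 NF-kB targets had a median of 0.03. The 15 partners of HCF-1 had a median of 0.004, and *Wdr5*, a subunit of histone methyltransferase complexes, was at 401 and 368 TPM against 458 and 523 TPM. The 6 other pentose phosphate genes had a median of -0.13, 17 cholesterol synthesis genes 0.03, 76 autosomal ribosomal protein genes -0.08, 5 of 6 telomerase and H/ACA partners -0.04, 6 genes of BRCC36 complexes -0.03, and 11 p53 targets 0.07. Of 12 tested pluripotency genes 6 were lower at an unadjusted p under 0.05, against 5.03% of all genes tested, with a list median of -0.26. Against wild type the list median was -0.03, and 3 of the 6 were lower at that p. *Klf4*, another of the 6, was at 519 and 419 TPM in deletion E, below 542 and 672 in XX Rnf12 (-0.42) and above 303 and 266 in wild type (0.69). Of those lower in both, *Nanog* was at 812 and 726 TPM against 926 and 938 TPM, and *Tfcp2l1* at 200.3 and 165 TPM against 247 and 264 TPM in XX Rnf12. Of 6 DNA methylation genes, with a median of 0.07, the de novo methyltransferase gene *Dnmt3b* was at 201 and 278 TPM against 130 and 122 TPM, above both XX Rnf12 libraries, and in wild type at 176 and 180.4 TPM (log2 change 0.87; edgeR, Benjamini-Hochberg adjusted p = 0.19).

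Against XX wild type, which shares the deletion E libraries with the comparison above and differs also by the *Rnf12* deletion, the interval was lower by a similar amount. The median log2 change of the 67 genes was -1.06, and 29 fell, against a background of 0.426% of all genes tested called lower; none rose (background 0.0908% called higher). Outside, 13 genes were called higher and 32 lower, 7 of them X-linked. Among these were *Rlim* itself, at 99.4 and 116 TPM in deletion E against 211 and 193 TPM (-0.94), and *Rhox5*, a homeobox gene, at 192 and 276 TPM against 1248 and 1260.3 TPM, which in XX Rnf12 was at 137 and 157 TPM. The member of the lists above that was called was the ribosomal protein gene *Rpl13a*, at 342 and 358 TPM against 227 and 214 TPM (0.63; edgeR, Benjamini-Hochberg adjusted p = 0.030). Without any 1 of the deletion E or wild-type libraries this comparison made no call inside the interval.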

How the data were processed

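Bulk polyA RNA-seq of 30 mouse stem cell libraries was deposited as 1 table of raw read counts per gene, with total, 129 (Mus) and Cast counts. Per the labels the authors used Trim Galore 0.6.7, HISAT2 2.2.1 and SAMtools 1.10 on mm10, and the labels name HTSeq 0.12.4 as counter where the methods of the study name featureCounts; reads were split by strain with SNPsplit, and strand was used. The 6 libraries used were paired-end, 50 bases. Of 55421 genes, 55240 were matched to GENCODE M21; the other 181 held at most 0.0040% of counts. Counts were tested with edgeR 4.0.16 (R 4.3.3; glmQLFit and glmQLFTest on 6 libraries with a term per genotype, TMM factors from autosomes, mean count of at least 20, chromosome 12 left out, adjusted p under 0.05 called). For values per copy the log copy number was added to the offset. DESeq2 1.42.0, other scalings, filters, reference groups and left-out libraries were alternatives. TPM was computed from counts and exon lengths. On simulated counts for the total comparison (14170 genes), 58 of 100 genes changed by log2 1 and 88 of 100 by log2 2 were called, and 19 of 13970 unchanged ones. Genes named were those of interest by position or study, those called, the 5 highest and lowest per copy, and list members by level or call; members and lists were chosen with earlier results of these data known. No sequences are shown. The values of 1 gene of the interval are not reported here.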

Additional observations from a re-analysis of the deposited data

How the results depend on the processing

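The median total change inside the interval stayed below 0 in every alternative run, while the number of calls and the sign of the medians per copy and on Cast counts did not hold. Genes called lower inside against XX Rnf12 (16) became 42 with DESeq2, 43 with all 30 libraries in the fit and 29 with the 4 XX libraries as 1 group; genes lower and higher outside (1 and 0) became 43 and 113, 17 and 48, and 0 and 4 in these, and 1 was higher with no count filter. Leaving out 1 library gave 0 to 22 lower inside, 0 to 2 lower and 0 to 8 higher outside. The cause of these differences was not tested. The median inside (-0.97) was -1.02 without a filter, -1.03 over 5 TPM and -1.02 with 4 XX libraries, and -1.09 to -0.95 with 1 library left out. Per copy, DESeq2 and the fit on 30 libraries each called 3 higher and 1 lower inside; outside they called 99 and 13 higher and 42 and 5 lower. The median per copy (0.03) was -0.041, -0.034 and -0.022 in the 3 settings just named and -0.088 to 0.054 with 1 library left out, where no call was made (0).

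On Cast counts, genes higher inside (0) were 1 with DESeq2, 2 without a filter and 0 to 3 with 1 library left out (3 without Rnf12 1); outside, lower and higher counts (0 and 0) were 2 and 5 with DESeq2, 50 and 112 without a filter, 0 to 28 and 0 to 37 with 1 library left out, and 1 was higher with 4 XX libraries. The median Cast change (-0.10) was -0.020 without a filter, -0.053 over 50 Cast counts and -0.12 to 0.012 with 1 library left out. Against wild type, genes lower inside (29) were 48 with DESeq2 and 0 to 37 with 1 library left out; lower and higher outside (32 and 13) were 281 and 278 with DESeq2, 51 and 20 without a filter, and 0 to 79 and 0 to 53 with 1 library left out; 20 were higher over 5 TPM. The median was -1.11 without a filter and -1.14 to -1.03 with 1 library left out. The ratio of mean levels (0.568) was 0.540 for protein-coding genes, 0.507 as the median of per-gene ratios and 0.550 to 0.585 with 1 library left out. The mean Mus share of deletion E (19.4%) was 4.86% without *Bgn* and *Flna*.

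Replicate numbers did not pair deletion E with the XX libraries: deviations from group means correlated at -0.35 with XX Rnf12 and -0.24 with wild type over 14316 genes. Those of the XX Rnf12 and wild-type libraries correlated at 0.76, so the numbers did go together between the XX genotypes. With the replicate block, 19 genes were lower inside on total counts, 1 was higher inside on Cast counts with 6 lower and 19 higher outside, and against wild type 58 were lower and 29 higher outside. With the deletion E numbers crossed, chosen after seeing the data, the block gave 35 lower inside and 6 lower and 20 higher outside on total counts, 2 higher inside, 43 lower and 80 higher outside on Cast counts, and 49 lower inside, 264 lower and 305 higher outside against wild type. On Cast counts 36 genes of the interval reached the count minimum, against 75 on total counts, at a depth where 12.4% to 12.5% of counts could be given to an allele.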
